A study of Mus musculus with 4 samples.

Results

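The epithelial cells of the mouse mammary rudiment were compared between the embryonic stage E15.5 and the day of birth (P0) in single-cell RNA-seq data. The 672 cells, 445 at E15.5 and 227 at P0, were chosen by their own counts of epithelial and stromal transcripts, out of 1319 cells of these stages that passed the filters on depth and mitochondrial RNA and 1630 such cells in the whole series. A cell was taken as epithelial when it had at least 10 unique molecular identifiers (UMIs, the number of distinct transcripts counted) of Epcam, Krt8, Krt18, Krt5, Krt14 and Krt15 together, over 2 times its UMIs of Col1a1, Col1a2 and Col3a1, and at least 5 UMIs of Krt8 and Krt18. These 9 genes are therefore described here and carry no finding. Near the last limit, 39 cells at E15.5 and 7 at P0 had 5 to 9 UMIs of Krt8 and Krt18 and were inside, while 81 and 2 cells with 0 to 4 met all other limits and were outside.

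Both groups were female wild-type mice, labelled C57B6 and given as C57 B6/N in the study's methods, with no transgene and no treatment. The mammary tissue of several animals was pooled for each stage, dissociated, sorted as live cells without the blood and endothelial markers CD45, CD31 and Ter119, and captured as 1 droplet library per stage. The study reports that the sort took epithelial cells as EpCAM-positive and stromal cells as EpCAM-negative. P0 tissue was digested with another ratio of collagenase to hyaluronidase than embryonic tissue and went through a red cell lysis. Stage, pool, digestion and library therefore cannot be told apart, no value has a replicate, and no test was made. The intervals given here are exact 95% limits that cover counting error only. For a gene with 0 UMIs at one stage, a fold is given as "at least" against a floor of 3 counts summed over that stage, with the exact lower limit of the ratio, which lies below it, in brackets.

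The mouse mammary gland begins as an ingrowth of surface ectoderm, the bud, which sits in a specialised mesenchyme and sprouts into a small tree late in gestation. The embryonic cells carry basal and luminal keratins together. After birth the epithelium holds basal cells, which contract and wear Krt5 and Krt14, and luminal cells with Krt8 and Krt18, and the luminal cells are of a hormone-sensing and a secretory (alveolar progenitor) kind. Wnt signalling places and builds the bud, and the milk genes belong to the secretory luminal cells.

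Since the study sorted the cells by EpCAM, the share of a tissue in a library does not measure the make-up of the gland. Epithelial cells were 54.5% (51.0-58.0) of the cells passing the filters at E15.5 and 45.1% (40.7-49.6) at P0. Their median depth was 24813 UMIs at E15.5 and 9980 at P0, and mesenchymal cells of the same libraries, taken with the rule turned around (279 and 265 cells), had 24324 and 8778. For this reason a share of cells with a UMI was read after every cell was thinned to 5000 UMIs, and the share in mesenchymal cells is given beside it. Free RNA in droplets and expression by mesenchymal cells cannot be told apart in that share. No cell barcode occurred in both libraries. Among the 9 mammary epithelial markers, including Epcam, Krt8 and Krt18, every gene was detected at both stages. Their summed level was 4391 CPM (UMIs of the genes per 1000000 UMIs of all genes) at E15.5 and 15043 at P0. Most of this sum came from Epcam, Krt8 and Krt18, which chose the cells, so that it is a description only. They stood at 1865, 1079 and 718 CPM at E15.5 and 4124, 5249 and 3894 at P0. Markers of other tissues were present as well. The 9 mesenchyme markers, which include Col1a1, Col1a2 and Col3a1 of the rule, stood at 223 CPM at E15.5 and 427 at P0. Those 3 genes went from 21.7 to 94.1, from 11.1 to 58.3 and from 38.6 to 124.8 CPM, so the rise of the sum is a description only. The 10 blood markers stood at 1.31 and 20.2, the 7 endothelial markers at 6.98 and 3.11 and the 8 muscle and adipocyte markers at 2.14 and 5.06. The 12 skin epidermis markers stood at 2827 CPM at E15.5 and 793 at P0, with Krt2 at 0 at E15.5 and Krt2, Calm4, Dsc1 and Dsg1a at 0 at P0. Among the 12, Krtdap alone stood at 657 CPM at E15.5, with a UMI in 51.0% of thinned cells and in 83.4% before thinning. The 10% of cells with most Krtdap held 66.8% of its UMIs at E15.5. Krt10 and Krt1 stood at 39.2 and 5.75 CPM there. The study reports Krtdap and Lgals7, also of this list, in its luminal-like mammary cells at E15.5. The sum therefore does not measure skin cells alone. The 9 periderm and stress keratin markers stood at 1139 and 961 CPM. Of the 7 endothelial markers 3 were at 0 at E15.5 (Cdh5, Kdr and Tie1) and 5 at P0 (the same with Cldn5 and Emcn). Of the 10 blood markers 4 were at 0 at E15.5 (Alas2, Hbb-bt, Ptprc and Tyrobp), and all 10 were detected at P0. The part of these cells in the differences was not tested.

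Levels are the summed UMIs of a gene over all epithelial cells of a stage, scaled to CPM, so that more cells with a transcript and more transcript per cell cannot be told apart from the level alone. Of 8276 genes with at least 10 CPM at one stage, 1230 (14.9%) were at least 2-fold higher at P0, 1314 (15.9%) at least 2-fold higher at E15.5, and 5732 within 2-fold. A gene below 10 CPM at one stage was measured only through the other, which fixes its direction. The limit of 4-fold was passed by 537 genes at P0 and 410 at E15.5, and that of 16-fold by 186 and 80. The median log2 ratio of P0 over E15.5 was -0.12 in epithelium and -0.40 in mesenchyme, and list medians are given here against the epithelial value. A gene was set aside when the mesenchyme of the same libraries shifted alike, that is in the same direction, by at least 50% of the epithelial log2 ratio, at a level of at least 10% of the epithelial one. This set aside 446 of the genes higher at P0 (36.3%) and 649 of those higher at E15.5 (49.4%), and left 784 (9.47% of all genes) and 665 (8.04%). In mesenchyme, 135 of the genes higher at P0 and 99 of those higher at E15.5 moved at least 2-fold the other way, without a share of all genes to set beside them. The plot of both ratios for each gene shows this division.

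**Figure D1:**
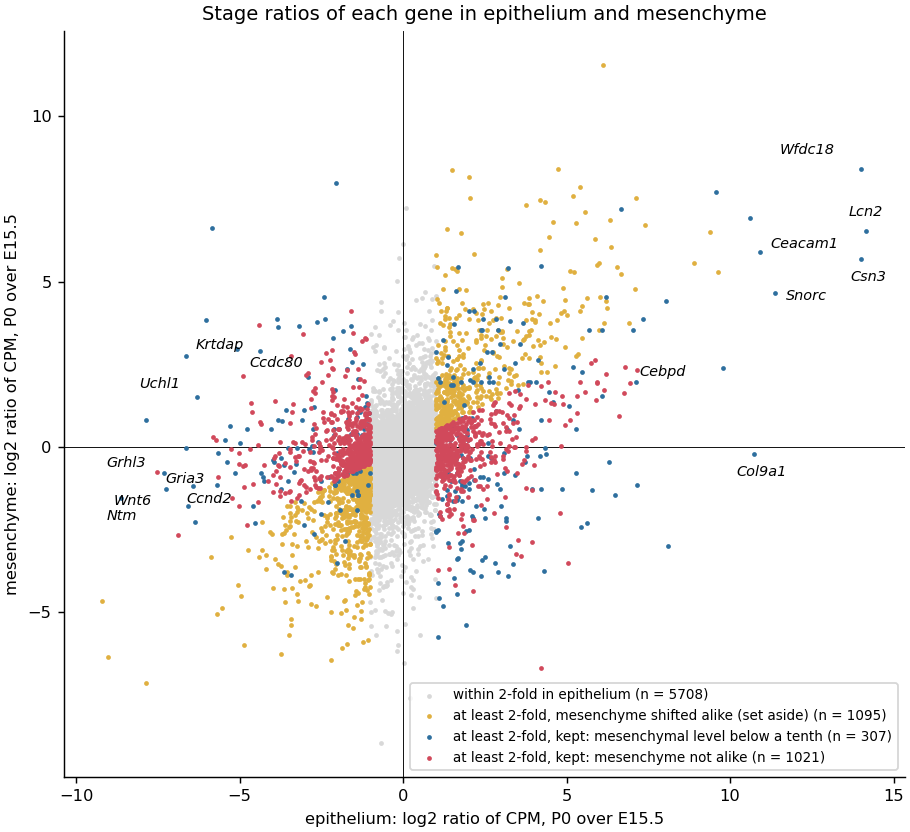
Each point is a gene with a mesenchymal ratio, placed by the log2 ratio of CPM, P0 over E15.5, in epithelium on the horizontal axis and in mesenchyme on the vertical axis. Yellow genes were set aside because mesenchyme shifted alike, blue genes were kept with a mesenchymal level under 10% of the epithelial one, red genes were kept as not alike, and grey genes were within 2-fold. Wfdc18, Lcn2 and Csn3 lie farthest to the right, with Lcn2 at a log2 ratio of 14.17, and Krtdap, Uchl1 and Ccdc80 lie on opposite sides of 0 in the 2 tissues.

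The genes that led at P0 included secreted milk and defence proteins. The 15 leading genes were those with the largest ratio at the near limit of its counting interval, among kept genes with at least 50 CPM and with a UMI in at least 10% of thinned cells. Their ratios ran from 101-fold for Krt7 to 18441-fold for Lcn2. At E15.5, 5 of the 15 had 0 UMIs, and 13 had 0 UMIs in the epithelial cells that the same rule found at E13.5 (61 cells) and E14.5 (23 cells). The study reports fewer mammary epithelial cells than this at E13.5. In the cells taken here, the 9 periderm and stress keratin markers stood at 1517 CPM at E13.5 and 208 at E14.5, and the 12 skin epidermis markers at 233 and 537. The part of periderm and skin cells in the E13.5 and E14.5 levels was not tested. For a gene with 0 UMIs the exact upper limit was 3.08 CPM at E13.5 and 5.34 CPM at E14.5. Because these leaders were chosen for a low E15.5 level against P0, the counts of 5 and 13 were largely set by the choice. Nothing is read from them. Wfdc18, a whey acidic protein family member of the secretory luminal cell, was at 0 UMIs in all embryonic stages and at 4016 CPM (3939-4094) at P0, at least 16292-fold higher (exact lower limit 13247). A UMI of Wfdc18 was found in 0 of 445 thinned cells at E15.5, 78.4% at P0 and 17.4% of P0 mesenchymal cells. Csn3, the casein that caps the milk micelle, had 1 UMI at E15.5 (0.0822 CPM) and 1349 CPM (1304-1394) at P0, a ratio of 16415 (2944-648538), and its share of cells was 57.7% at P0 against 10.6% in mesenchyme. Lcn2, the iron-binding defence protein lipocalin, also had 1 UMI at E15.5 and reached 1515 CPM (1468-1563) at P0, a ratio of 18441 (3308-728553), in 81.9% of P0 cells. All 3 genes were thus absent or nearly absent from the E15.5 cells, and each was also found in some P0 mesenchymal cells, at 239.8, 21.7 and 39.3 CPM.

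The other leaders at P0 were of several kinds. Snorc, at chr1:87470271-87475482, encodes a small membrane proteoglycan known from cartilage and was at 0 UMIs at E15.5 and 649 CPM at P0, at least 2635-fold higher (exact lower limit 2140.4). Col9a1, a chain of cartilage collagen IX at chr1:24177610-24252684, stood at 0.0822 CPM (1 UMI) and 141 CPM, and was at 12.4 and 10.6 CPM in mesenchyme. Ceacam1, an adhesion molecule of luminal surfaces, was at 0 UMIs and 474 CPM, at least 1925-fold higher (1563), and was found in 78.4% of P0 cells against 2.64% of mesenchymal cells. Secreted cytokines were also among the leaders. Csf3, the granulocyte growth factor, went from 0.164 to 257 CPM, and Lif, a STAT3-activating cytokine, from 0.493 to 376 CPM, 763-fold (349-2084). Cebpd, a transcription factor that acts downstream of STAT3, was present at all stages and stood at 4.17, 5.79, 8.71 and 1077 CPM in order of age, a rise of 124-fold (102-152), while mesenchyme went from 105 to 396 CPM. Slpi, a protease inhibitor of secretions, rose 261-fold (183-386), from 2.55 to 665 CPM. Ltf (lactoferrin) and Atp6v1b1 (a proton pump subunit) were at 0 UMIs at E15.5 and at 72.3 and 55.2 CPM at P0, at least 293-fold (236) and 224-fold (179.8) higher. Cd14, a receptor for bacterial lipid that also marks luminal progenitors, had 1 UMI and then 73.1 CPM, and Kcnn4, a potassium channel, rose 184-fold (83.2-506) to 90.6 CPM. Slpi, Ltf and Cd14 were found in 27.3%, 13.7% and 19.4% of thinned P0 cells. The 10% of P0 cells with most of each gene held 87.1%, 90.3% and 72.9% of its UMIs. For the other leaders at P0 this share was 32.4% to 69.5%. Krt7, a simple keratin, was also present at E13.5, with 97.6 CPM (117 UMIs), 0 UMIs at E14.5, 4.68 CPM at E15.5 and 473 CPM at P0, a ratio of 101 (77.4-134) over E15.5. In mesenchyme, 11 of the 15 leaders were also at least 2-fold higher at P0, at levels below 10% of the epithelial one or by less than 50% of its log2 ratio. The share of all genes that were so in mesenchyme is not given, so nothing is read from this count.

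The promoters of the leading genes were read from RefSeq for 2 letter patterns, because STAT factors and TCF/LEF factors are the best known nuclear ends of the prolactin or cytokine and the Wnt pathway. The table (GRCm38.p6, the 250 bases before each start) held promoters for 10 of the 15 P0 leaders and 11 of the 15 E15.5 leaders. TTCNNNGAA (STAT), read on both strands, was in 7.02% of all 32851 promoters, or for 8.13% of all genes in at least 1 promoter. It was found for 0 of the 10 genes at P0 and 1 of the 11 at E15.5, Dach2. CTTTGA (TCF/LEF), also on both strands, was in 13.8% of all promoters and for 15.8% of all genes. It was found for 1 gene at P0, Col9a1, and 2 at E15.5, Grhl3 and Krtdap. With so few genes nothing is read from these counts. A match is a description of letters only. The promoter of Lcn2 is shown as that of a P0 leader with neither pattern, and those of Col9a1, Grhl3 and Krtdap for the leaders with a TCF/LEF match, which is in capitals (CTTTGA or, on the other strand, TCAAAG). They lie at chr2:32387740-32387989 (minus strand), chr1:24177360-24177609 (plus), chr4:135573633-135573882 (minus) and chr7:30787655-30787904 (plus), and are written 5′ to 3′ along the gene.
Lcn2: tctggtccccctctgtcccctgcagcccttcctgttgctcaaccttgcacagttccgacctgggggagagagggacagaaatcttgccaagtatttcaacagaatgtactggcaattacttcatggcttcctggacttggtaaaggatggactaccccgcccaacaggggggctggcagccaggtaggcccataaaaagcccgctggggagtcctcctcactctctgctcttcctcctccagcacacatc
Col9a1: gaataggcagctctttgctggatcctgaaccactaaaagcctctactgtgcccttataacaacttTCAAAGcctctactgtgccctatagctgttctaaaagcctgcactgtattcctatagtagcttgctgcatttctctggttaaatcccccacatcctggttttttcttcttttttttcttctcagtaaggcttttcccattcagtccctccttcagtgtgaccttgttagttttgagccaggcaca
Grhl3: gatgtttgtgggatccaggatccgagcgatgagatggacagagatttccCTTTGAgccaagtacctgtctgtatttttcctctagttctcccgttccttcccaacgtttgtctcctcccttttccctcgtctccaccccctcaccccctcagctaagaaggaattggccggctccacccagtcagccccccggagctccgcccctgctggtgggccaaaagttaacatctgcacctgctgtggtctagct
Krtdap: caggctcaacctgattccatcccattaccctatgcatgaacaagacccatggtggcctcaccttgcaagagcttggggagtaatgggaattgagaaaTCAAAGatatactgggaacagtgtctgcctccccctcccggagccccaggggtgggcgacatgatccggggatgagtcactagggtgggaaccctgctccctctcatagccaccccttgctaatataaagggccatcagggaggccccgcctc

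**Figure D2:**
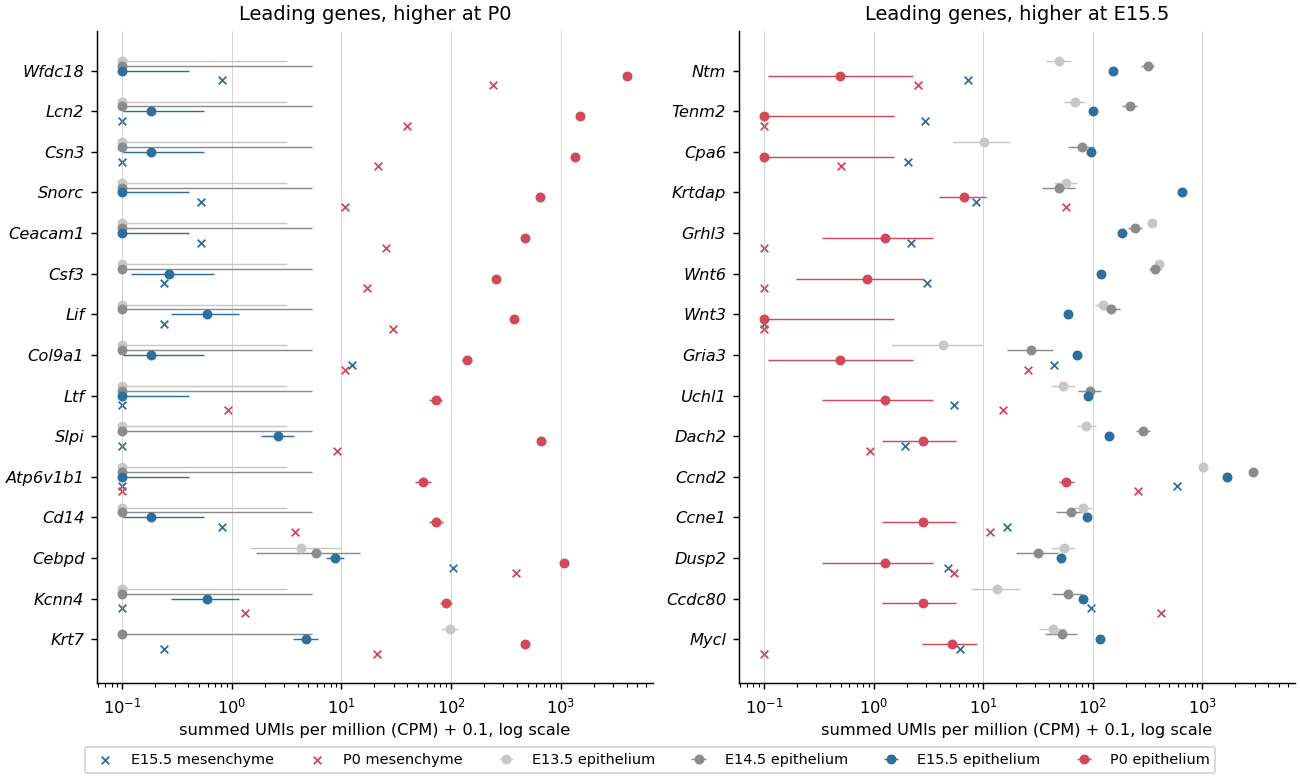
Level of the 15 leading genes of each direction in CPM plus 0.1 on a log axis, with circles for epithelium in the 4 stages, crosses for mesenchyme at E15.5 and P0, and lines for the 95% counting interval. On the left the P0 circles stand at 55.2 to 4016 CPM, to the right of the other epithelial circles of each gene, of which that of Krt7 at E13.5 is the highest at 97.6 CPM, and on the right the circles of the embryonic stages stand together above those of P0.

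In the luminal progenitor and milk list most measured genes were higher at P0. Of its 22 genes 16 were measured, 15 were at least 2-fold higher at P0 (against 14.9% of all genes), 12 of them kept, and 0 were higher at E15.5. The median log2 ratio was 6.63, or 6.75 above the median of all genes, and 2.50 in mesenchyme. Plet1, a surface protein of luminal progenitors, went from 10.0 CPM at E13.5 and 26.0 at E14.5 to 172 at E15.5 and 3200.5 at P0, a rise of 18.6-fold (17.7-19.5) from E15.5. Aldh1a3, the retinal dehydrogenase of luminal progenitors, rose 64.1-fold (53.7-77.0) from 10.9 to 700.0 CPM, but was set aside, since mesenchyme went from 1.69 to 80.6 CPM. Mfge8, a milk fat globule protein, went from 34.4 to 227 CPM and was set aside as well, with 182 CPM in P0 mesenchyme. Lypd3 was the member within 2-fold, at 128 and 209 CPM. Elf5, the transcription factor of the secretory lineage, stood at 71.7 CPM at E13.5 and 0 UMIs at E14.5, then at 1.73 and 23.7 CPM. Wfdc18, Csn3, Cd14, Trf and Elf5, with Csn2, Csn1s1 and Csn1s2a, were below 10 CPM at E15.5. Their direction was therefore fixed by the minimum level. The list was also chosen with earlier results of these data known, so its count and median are a description.

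The caseins were not alike. The casein genes lie together on chr5:87666208-87932665 (GRCm38), an interval with 9 genes of which 5 had a UMI at P0. Csn3 was found in 148 of the 227 P0 cells before thinning. Csn2, the beta-casein, had 0 UMIs at E15.5 and 147 CPM at P0, but its 379 UMIs came from 5 cells. Csn1s1 and Csn1s2a, named after their values were seen, had 89 UMIs in 8 cells and 46 UMIs in 2 cells at P0. The levels of these 3 caseins thus rest on a few cells, and that of Csn3 does not. Wap and Lalba, the late milk genes, stayed below 10 CPM and were not measured.

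Of the 16 antimicrobial and innate secretion genes 7 were measured, and all 7 were at least 2-fold higher at P0 (14.9% of all genes) and kept (9.47%). The median log2 ratio was 6.33, and it was 3.42 in mesenchyme. Beside Lcn2, Slpi and Ltf, these included Wfdc2, a whey acidic protein family inhibitor, which went from 15.0 to 556 CPM, 37.0-fold (31.7-43.4), and Clu (clusterin, a secreted chaperone), which went from 36.4 to 661 CPM, 18.2-fold (16.4-20.2), while it stood at 24.2 and 20.1 CPM in mesenchyme. Saa1, an acute phase protein, was at 0 UMIs and 19.8 CPM, in 0.881% of P0 cells. Lcn2, Slpi, Ltf and Saa1 were below 10 CPM at E15.5, so their direction was fixed by the minimum level. The 10 blood markers were also higher at P0 (above), and their part was not tested. Of 14 measured chemokines and cytokines 9 were higher at P0 (14.9% of all genes), of which 4 were kept, with 2 genes higher at E15.5 and a median of 1.63. The neutrophil attractants Cxcl1 and Cxcl2 rose 39.1-fold and 24.04-fold, to 604 and 446 CPM, but they were set aside at 4391 and 1258 CPM in P0 mesenchyme. Among the kept ones, Ccl20, a lymphocyte attractant, had 1 UMI and then 14.8 CPM, and Il33, an alarm cytokine, rose 40.0-fold (21.4-82.9) to 36.2 CPM. Tslp, a cytokine of barrier epithelia, fell 6.81-fold (4.32-11.4) from 50.3 to 7.39 CPM.

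The hormone-sensing luminal list was divided. Of 10 measured genes 6 were higher at P0 (14.9% of all genes), 3 of them kept, 2 were higher at E15.5 (15.9%) and set aside, and the median log2 ratio was 2.88. Areg, the EGF family ligand that relays oestrogen in the gland, stood at 11.7, 14.47, 64.2 and 1125 CPM in the 4 stages in order of age, a rise of 17.5-fold (16.2-18.98) from E15.5, with 14.7 CPM in P0 mesenchyme. Tspan8, a tetraspanin, went from 4.19 to 185 CPM, 44.2-fold (33.0-60.2), in 45.4% of P0 cells. Prlr, the prolactin receptor, rose 49.0-fold (28.3-91.9) to 56.4 CPM and Cited1, a co-activator of the oestrogen receptor, 19.7-fold (15.2-25.8) to 118 CPM, and both were set aside, with 22.5 and 20.5 CPM in P0 mesenchyme. Ly6a (Sca-1) went from 0.904 to 62.6 CPM and stood far higher in P0 mesenchyme, at 844 CPM. The next genes were named after their values were seen. Esr1, the oestrogen receptor, went from 16.9 to 8.17 CPM (set aside), Pgr, the progesterone receptor, from 5.67 to 10.5 CPM, and Foxa1, the partner of the oestrogen receptor, from 13.9 to 42.8 CPM, 3.08-fold (2.40-3.94).

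In levels summed over all cells, the myoepithelial contractile list rose in epithelium and fell in mesenchyme. Of 12 measured genes 9 were at least 2-fold higher at P0 (14.9% of all genes), 8 of them kept, 0 were higher at E15.5, and the median log2 ratio was 1.87 against -2.56 in mesenchyme. Acta2, smooth muscle actin, rose 10.3-fold (9.30-11.5) from 42.3 to 437 CPM, Tpm2, a tropomyosin, 11.4-fold (9.59-13.54) to 178 CPM, and Myh11, smooth muscle myosin, 18.5-fold (9.68-38.4) to 18.3 CPM. Cald1, caldesmon, went from 389 to 1299.6 CPM, and Tagln, transgelin, stayed within 2-fold at 348 and 431 CPM. The share of thinned cells with Acta2 was 11.9% at both stages. The 10% of cells with most Acta2 held 79.2% of its UMIs at E15.5 and 98.1% at P0.

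Keratins are given as a description where they took part in choosing the cells. Krt8 went from 1079 to 5249 CPM and Krt18 from 718 to 3894 CPM, while Krt5 went from 729.8 to 13.6 CPM, Krt15 from 340.1 to 11.7 and Krt14 from 2549.7 to 724. A UMI of Krt8 and one of Krt5 were found in the same thinned cell in 76.4% of cells (72.2-80.3) at E15.5 and 3.52% (1.53-6.83) at P0, while Krt18 and Krt14 were found together in 87.0% and 62.6%. At P0, 8 thinned cells had both Krt8 and Krt5, and 0 had Krt5 without Krt8. The joint share there is thus the share of cells with Krt5. The rule also asked for at least 5 UMIs of Krt8 and Krt18. Of the simple keratins that the rule did not use, all 3 measured were higher at P0 (14.9% of all genes). Besides Krt7, Krt19 rose 12.7-fold (11.6-13.9) from 51.8 to 658 CPM and Krt23 23.0-fold (13.1-43.2) to 28.4 CPM. The other stratified keratins moved both ways, with 2 of 6 higher at P0, 2 higher at E15.5 and a median of 0.01. Krt6a rose 6.72-fold (5.69-7.95) to 135 CPM and Krt80 4.08-fold (3.49-4.77) to 119 CPM, Krt10 fell 5.60-fold (3.50-9.53) and was set aside, and Krt17 stood at 686 and 443 CPM. Krt4, a periderm keratin, was 103-fold (28.5-854) lower at P0, but its 80.4 CPM at E15.5 came from 0.674% of thinned cells.

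**Figure D3:**
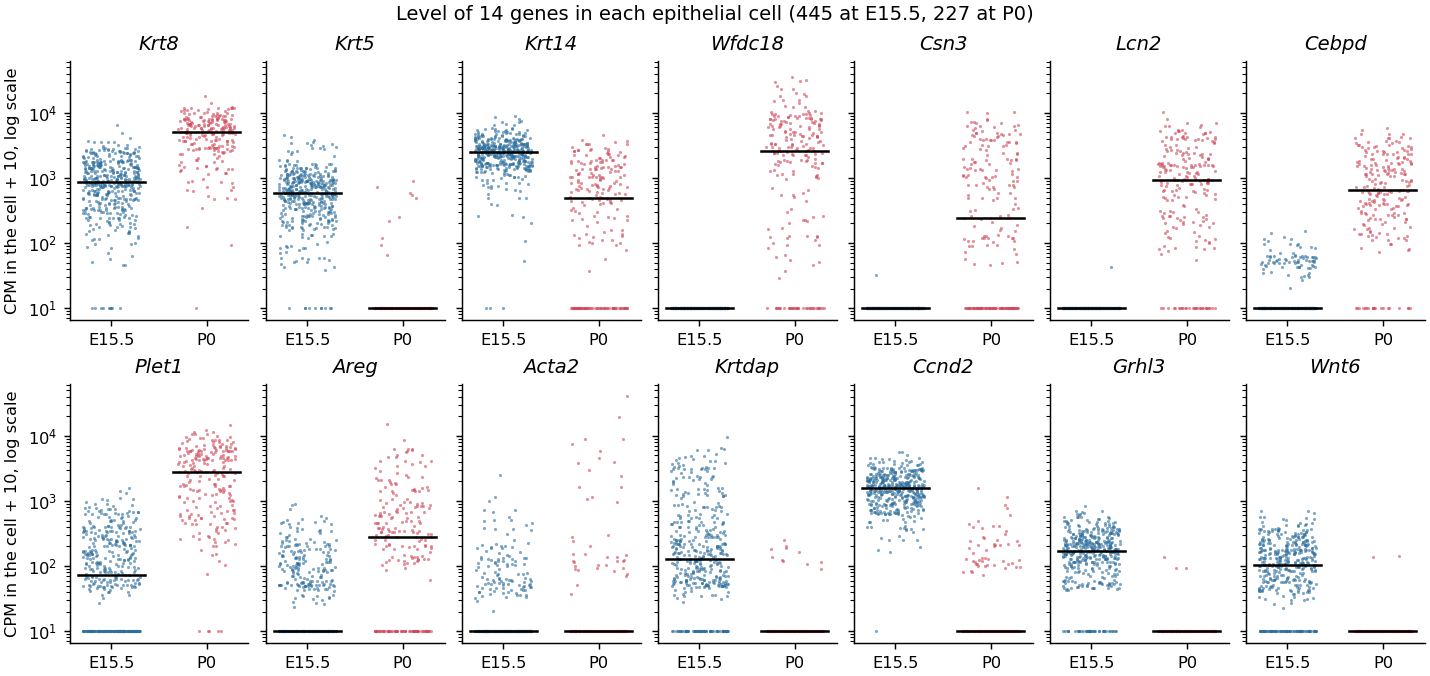
Each point is an epithelial cell (445 at E15.5, 227 at P0), with the CPM of the gene in that cell plus 10 on a log axis and a line at the median. Wfdc18, Csn3 and Lcn2 lie on the floor in the E15.5 cells and spread over a wide range at P0, while Krt5, Ccnd2, Grhl3 and Wnt6 do the reverse.

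The genes that led at E15.5 included adhesion molecules, Wnt ligands, transcription factors and cyclins. Their ratios over P0 ran from 23.0-fold for Mycl to 395-fold for Ntm, 3 of the 15 had 0 UMIs at P0, and all 15 were above their P0 level at both E13.5 and E14.5. Since the leaders were chosen for a low P0 level against E15.5, this last count was largely set by the choice, and nothing is read from it. Ntm (neurotrimin, an adhesion molecule at chr9:28994750-29963141) stood at 49.2, 318, 154 and 0.389 CPM (1 UMI) from E13.5 to P0, a ratio of 395 (70.8-15605). Tenm2, a teneurin adhesion protein, Cpa6, a carboxypeptidase, and Wnt3, a Wnt ligand, had 0 UMIs at P0 and 99.99, 96.5 and 58.9 CPM at E15.5, at least 85.7-fold (69.6), 82.7-fold (67.2) and 50.5-fold (41.0) lower at P0. Wnt6, a ligand of the bud at chr1:74771892-74785322, stood at 407, 370.4, 118 and 0.778 CPM (2 UMIs at P0), a ratio of 152 (41.9-1255). Grhl3, a transcription factor of the epidermal barrier at chr4:135541888-135573630, stood at 344, 243, 184 and 1.17 CPM (3 UMIs), a ratio of 158 (54.0-767). Wnt6 and Grhl3 were thus already lower at E15.5 than at E13.5.

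Ccnd2, cyclin D2, was found in almost every E15.5 cell. It stood at 1021, 2919, 1665 (1643-1688) and 57.6 (48.7-67.6) CPM in order of age, and fell 28.9-fold (24.6-34.2) from E15.5. The share of thinned cells with a UMI was 98.7% at E15.5 and 16.7% at P0, and 91.0% and 58.5% in mesenchyme, where the level fell from 594 to 257 CPM. Ccne1, cyclin E1, fell 32.3-fold (15.6-80.4) from 87.8 CPM, Mycl, an L-Myc transcription factor, 23.0-fold (13.4-43.4) from 116, Dach2, a Dachshund family cofactor, 51.5-fold (24.9-128) from 140.2, and Dusp2, a phosphatase that acts on MAP kinases, 43.5-fold (14.8-212) from 50.8 to 1.17 CPM (3 UMIs). Gria3, a glutamate receptor subunit, stood at 72.0 CPM and 1 UMI. In 3 leaders mesenchyme moved the other way. Krtdap, a protein of differentiating keratinocytes, stood at 56.7, 49.2, 657 and 6.61 CPM from E13.5 to P0, 99.3-fold (62.0-171) lower at P0 than at E15.5, and went from 8.45 to 56.5 CPM in mesenchyme. Uchl1, a neuronal ubiquitin hydrolase, went from 91.4 CPM to 1.17 (3 UMIs) in epithelium and from 5.35 to 15.1 in mesenchyme. Ccdc80, an extracellular matrix protein, fell 30.0-fold (14.52-74.9) from 81.7 CPM in epithelium, and went from 95.7 to 419 in mesenchyme. Krtdap is 1 of the 12 skin markers, and without cells with at least 5 UMIs of Krt1, Krt10 and Lor the log2 ratio of Krtdap was -6.43, beside -6.63 in all cells. The study also reports Krtdap in its luminal-like mammary cells at E15.5.

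Most measured Wnt genes were lower at P0. Those below 10 CPM at P0, such as Wnt3, Wnt6, Wnt10b and Lef1, had their direction fixed by the minimum level. Of 35 genes 26 were measured, 18 were at least 2-fold higher at E15.5 (against 15.9% of all genes), 9 of them kept, 3 were higher at P0, 2 of them kept, and the median log2 ratio was -2.19 against -1.03 in mesenchyme. Among the ligands, Wnt10b was at 39.4 CPM at E15.5 and 0 UMIs at P0, at least 33.8-fold lower (27.4), and Wnt4, which relays progesterone in the adult gland, fell 9.90-fold (7.02-14.4) from 127 to 12.8 CPM and was set aside. Among receptors, Lgr5, the R-spondin receptor, went from 11.7 CPM at E13.5 and 73.8 at E14.5 to 85.1 and then 19.4, a fall of 4.38-fold (3.30-5.94) with 13.53 and 10.6 CPM in mesenchyme, Fzd3 fell 4.43-fold (3.40-5.89) and was set aside, and Lrp6, the co-receptor, stood at 109 and 94.9 CPM. Lef1, the nuclear partner of beta-catenin and a marker of the bud, fell from 202 CPM to 1 UMI, a ratio of 520.4 (93.3-20562), and was set aside with a fall from 100.5 to 1.23 CPM in mesenchyme. The 3 genes higher at P0, named after their values were seen, were Wnt5b (6.98 to 24.5 CPM), Tcf7 (3.78 to 10.1 CPM) and Lrp5 (13.1 to 26.8 CPM, set aside).

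The embryonic mammary bud list had 12 of 22 genes measured. Of these 8 were higher at E15.5 (15.9% of all genes), 3 of them kept, 0 were higher at P0, and the median log2 ratio was -2.27, with -3.04 in mesenchyme. Sox11, a transcription factor of embryonic progenitors, stood at 442, 881, 858 and 66.5 CPM, a fall of 12.9-fold (11.1-15.1), while it went from 40.4 to 69.2 CPM in mesenchyme. Bmp2, a bone morphogenetic protein, fell from 40.6 CPM to 2 UMIs, a ratio of 52.2 (14.4-432), and Lmo1, a LIM-only cofactor, fell 12.4-fold (7.92-20.7) from 91.9 CPM. Bcl11b, a zinc finger repressor, Ndnf, a secreted neurotrophic protein, Cxcl14, a chemokine, and Lmo4, a partner of luminal factors, fell 29.1-fold, 14.1-fold, 8.79-fold and 2.56-fold and were set aside. Sox9, a progenitor factor, stood at 504 and 513 CPM. Of 8 measured Notch genes 5 were higher at E15.5 (4 kept, against 15.9% and 8.04% of all genes), 1 was higher at P0, and the median was -1.35. Notch1 and its target Hes1 both fell 4.21-fold, from 374 to 89.1 and from 669 to 159 CPM, and Hes1 went from 51.0 to 168 CPM in mesenchyme. Dll1, a ligand, was the one gene higher at P0, at 1.48 and 10.1 CPM, 6.84-fold (3.61-13.2).

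Of 27 lineage transcription factors 11 (40.7%) were higher at E15.5, 9 of them kept, against 15.9% of all genes, and 6 (22.2%) were higher at P0 against 14.9%. Their median of -0.12 was that of all genes. Beside Cebpd, Sox10 was higher at P0, at 2 UMIs (0.164 CPM) and 10.5 CPM, and was set aside. Sox10 is also made by Schwann cells, and their part was not tested. Gata3, the luminal factor, fell 3.26-fold (2.75-3.90) from 178 to 54.4 CPM. Trp63, the basal factor p63, named after its value was seen, stood at 113, 308, 74.8 and 3.89 CPM, a fall of 19.2-fold (10.4-40.2) from E15.5. In the 16 P0 cells with at least 5 UMIs of Acta2 (below), Trp63 stood at 23.5 CPM (6.39-60.1). It was at 2.50 (0.917-5.44) in the other 211 P0 cells. The study reports more luminal than basal cells at P0, and the part of this make-up in the fall of Trp63 was not tested. Klf5, Nfib and Sox4 stayed within 2-fold, at 809 and 915, 642 and 589, and 549 and 951 CPM.

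Imprinted growth genes parted from the mesenchyme. Of 15 measured genes 8 were higher at E15.5 (15.9% of all genes), 7 of them kept, 2 were higher at P0 and set aside, and the median log2 ratio was -1.54 in epithelium and 0.85 in mesenchyme. Mest fell 21.6-fold (10.4-54.0) from 58.9 to 2.72 CPM and stood at 267 and 279 CPM in mesenchyme. Peg10 fell 24.3-fold (9.45-89.7) and its neighbour Sgce stood at 15.8 CPM and 2 UMIs, a ratio of 20.3 (5.54-169), while they went from 36.1 to 75.3 and from 47.8 to 77.7 CPM in mesenchyme. Plagl1, a zinc finger factor that governs this network, fell 7.90-fold (6.34-9.98) from 249 to 31.5 CPM, and went from 194 to 876 CPM in mesenchyme. Grb10, a brake on insulin signalling, fell 4.94-fold (4.10-6.005), and Cdkn1c, a cell cycle inhibitor, 2.90-fold (2.53-3.34). Meg3 and H19 stayed within 2-fold in epithelium, at 590.1 and 437 and at 312 and 278 CPM. Dlk1, a stromal growth regulator, was 18.8-fold (14.4-24.7) higher at P0 and stood at 1541 and 7447 CPM in mesenchyme, so that it was set aside. Fetal RNA-binding and growth genes were mostly set aside, with 6 of 7 higher at E15.5 (15.9% of all genes), 1 of them kept, and Myc higher at P0.

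The EGF family moved by its ligands. Of 10 measured genes 5 were higher at P0 (14.9% of all genes) and 1 at E15.5 (15.9%), all kept, with a median of 1.03. The 5 were ligands. Beside Areg, Hbegf rose 6.79-fold (6.17-7.48) from 59.3 to 403 CPM, Btc (betacellulin) 7.66-fold (4.90-12.1) from 2.79 to 21.4, Tgfa 5.26-fold (4.14-6.68) from 11.2 to 58.7 and Nrg1 (neuregulin) 3.12-fold (2.60-3.75) from 24.6 to 77.0, the last against 65.2 and 6.14 CPM in mesenchyme. Epgn (epigen), a further ligand, stood at 41.6 and 55.2 CPM. No measured receptor was 2-fold higher. Erbb3 stood at 146 and 92.2 CPM, and Erbb4, named after its value was seen, fell 3.65-fold (2.51-5.51) from 41.2 to 11.3 CPM.

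Lists of the epithelial sheet had smaller medians, and their counts stand against 14.9% of all genes higher at P0 and 15.9% higher at E15.5. Of 14 tight junction genes 4 were higher at P0 and 1 at E15.5, with a median of 0.61. Cldn3 rose 5.46-fold (5.03-5.92) to 487 CPM and Cldn1 4.35-fold (3.81-4.98) to 164, Cldn4 stood at 1263 and 1182 CPM, and Cldn6, named after its value was seen, fell 2.65-fold (2.30-3.06) to 80.9. Of 17 apical polarity and lumen genes 7 were higher at P0 and 1 at E15.5 (median 0.65). They included the mucins Muc4, which had 3 UMIs at E15.5 and 23.3 CPM at P0, a ratio of 94.7 (30.9-472), and Muc15, which rose 10.8-fold (7.999-14.7), and the ETS factors of secretory epithelia Ehf, 12.4-fold (10.2-15.3) to 138 CPM, and Elf3, 5.64-fold (4.31-7.40) to 48.2. Desmosome genes went 2 up and 4 down of 10 (median -0.60), among them Dsc3, 24.05-fold (13.4-48.3) lower at P0, and Perp and Dsp, 3.91-fold and 2.64-fold lower. Of 17 basement membrane and hemidesmosome genes 3 were higher at P0 and 3 at E15.5, 17.6% each and close to those shares (median 0.30). Lama3 and Col17a1, of the hemidesmosome, fell 6.54-fold (4.88-8.97) and 4.21-fold (3.21-5.62), and Itga3, a laminin receptor, rose 3.41-fold (2.71-4.28). Dsc3, Perp and Dsp are also genes of stratified skin, whose markers were higher at E15.5 (above), and their part was not tested. The study reports Dsc3 in its luminal-like mammary cells at E15.5 as well.

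For the next lists, the share of all genes is again 14.9% higher at P0 and 15.9% higher at E15.5. All 20 oxidative phosphorylation genes were within 2-fold, with a median of 0.03. Glycolysis genes went 2 up and 1 down of 15, lipid and sterol genes 6 up and 3 down of 19, immediate early genes 3 up and 1 down of 16, cell cycle inhibitors 0 up and 2 down of 8, and interferon and antigen presentation genes 2 up and 3 down of 11. Within these, Scd1, a desaturase of milk and adipose fat, had 3 UMIs at E15.5 and 24.1 CPM at P0, a ratio of 97.8 (32.0-487). Cd74, the invariant chain of antigen presentation, fell 16.8-fold (9.07-35.1) from 65.2 to 3.89 CPM. Among annexins, galectins and S100 genes 8 of 15 were higher at P0 (4 kept), with a median of 1.02. S100a1, a calcium-binding protein, rose 31.2-fold (22.3-44.7) to 103 CPM and Lgals3 (galectin-3) 9.33-fold (8.58-10.2) to 629, whereas S100a6, at 297 and 2959.8 CPM, was set aside. Of 5 measured skin epidermis markers 4 were higher at E15.5 (median -1.79), with Lgals7 at 1565 and 454 CPM. The list plot gives every member.

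**Figure D4:**
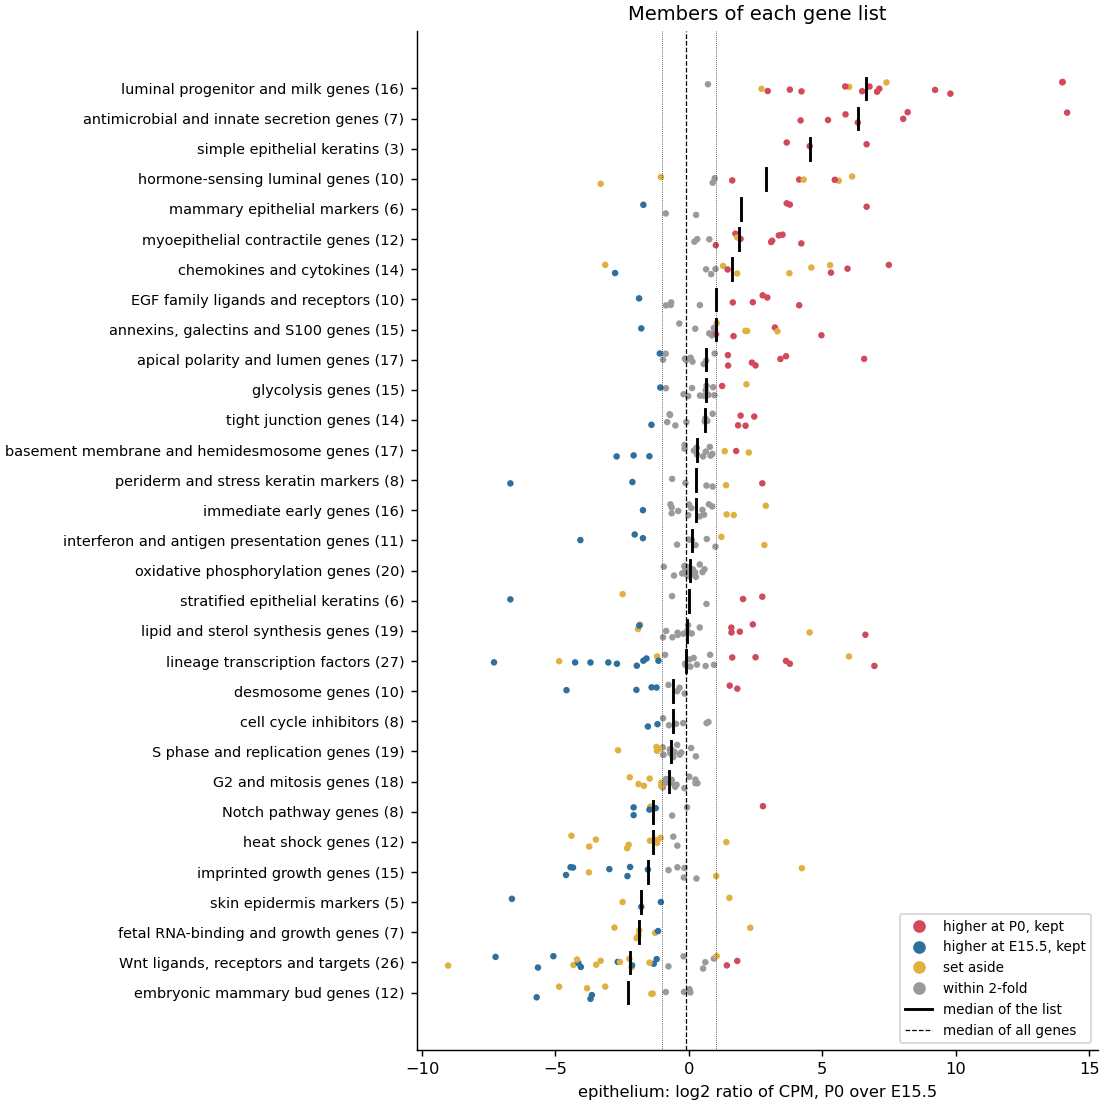
Each point is a measured gene of a list (the number of genes in brackets), placed by its log2 ratio of CPM, P0 over E15.5, in epithelium, with a black bar at the list median and a dashed line at the median of all genes. The luminal progenitor and milk list stands farthest to the right with a median of 6.63, and the bud list farthest to the left with -2.27. Red and blue points are kept genes higher at P0 and at E15.5, yellow points were set aside and grey points were within 2-fold.

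The genes set aside moved in both tissues of a library. Heat shock genes were among them, with 9 of 12 higher at E15.5 (15.9% of all genes), 1 higher at P0 and 0 kept. Hspa1b and Hspa1a, near-identical copies whose reads can be split, fell 13.3-fold and 21.1-fold in epithelium and went from 1619 to 133 and from 1701 to 167 CPM in mesenchyme. Hsph1 fell 11.2-fold (9.28-13.7) and Dnaja1 4.78-fold (4.56-5.02). The stages differed in digestion and library, and the part of either was not tested. Of the set-aside genes named here, 4 had E13.5 and E14.5 levels on the side of P0. Ptp4a1, a phosphatase, stood at 0 UMIs, 5.79, 455 and 0.778 CPM, Atp6v0c, a proton pump subunit, at 266, 256, 4.03 and 329 CPM, Rnasek at 75.9, 89.7, 1.31 and 105 and Mrpl53 at 50.04, 46.3, 0.739 and 56.0. For these genes the E15.5 library stood apart from the other 3, and by its header it was made with another version of the counting program. Its gene list also differs from that of P0, with 647 genes found only at E15.5 and 1879 only at P0. Among kept genes, 110 of those higher at P0 and 71 of those higher at E15.5 also had E13.5 and E14.5 levels nearer to P0. The share of all genes with such levels is not given, so nothing is read from these counts. The part of the program and of the gene list was not tested. Cp (ceruloplasmin), Apod (apolipoprotein D) and AW112010 led the genes set aside at P0, at 195, 333 and 118 CPM, with 65.9, 165 and 20.1 CPM in mesenchyme. Cdh6, a cadherin, and Nnat (neuronatin) were among those at E15.5, where they fell 232-fold (41.5-9171) and 13.4-fold (9.67-19.2).

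Cell cycle genes differed between the tissues. In epithelium 15 of 19 S phase genes and 12 of 18 G2 and mitosis genes were within 2-fold, the other 4 and 6 (21.1% and 33.3%, against 15.9% of all genes) were higher at E15.5 and set aside, and the medians were -0.66 and -0.75, while those in mesenchyme were -2.46 and -4.50. Mki67 stood at 60.7 and 71.9 CPM and Top2a at 108 and 128 CPM in epithelium, against 118 and 7.77 and 361 and 15.96 CPM in mesenchyme. The thinned share of epithelial cells with Top2a was 15.1% at E15.5 and 9.69% at P0, and 30.8% and 3.77% in mesenchyme. Rrm2, a reductase subunit for DNA synthesis, fell 6.30-fold (3.47-12.7) in epithelium.

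Epithelial cells of one stage were then divided by lineage genes, which are themselves a description. Of the 227 P0 cells 16 had at least 5 UMIs of Acta2, with a median depth of 10147 UMIs beside 9980 in the others. These 16 had more Krt5, at 158 CPM (104-230.4) against 3.33 (1.44-6.57), and more Krt14, at 1489.6 (1312-1684) against 669 (637-703). They had less Krt8, at 932 (793-1089) against 5556 (5462-5651), and less Wfdc18, at 393 (305-499) against 4273 (4191-4356). Csn3 did not follow Wfdc18 and stood at 1589 (1406-1790.2) against 1332 (1286-1379), and Lcn2 was higher in the 16 cells, at 3384 (3113-3672) against 1382 (1336-1430.2). Ccnd2 was at 405 (315-512) against 32.9 (26.1-41.0). Of the leaders at P0, Csf3 was higher and Lif lower in these cells, at 504 against 239.9 and at 82.1 against 397 CPM.

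The 40 P0 cells with at least 2 UMIs of Prlr and Cited1 together were deeper than the other 187, with medians of 13580 and 9580 UMIs. Areg stood at 2765 CPM (2639-2897) in them and 573 (540-608) in the others, Slpi at 1907 (1803-2017) and 247 (225-270.2), and Krt19 at 1381 (1292-1475) and 414 (386-444). Most luminal progenitor and secretory genes shown were lower in them, with Wfdc18 at 778 (711-849) against 5106 (5006-5208), Csn3 at 285 (246-329.7) against 1707 (1649-1766), Plet1 at 1273 against 3849.8 and Aldh1a3 at 116 against 897 CPM, while Cd14 was higher in them, at 103 (80.1-131) against 62.9 (52.2-75.2). Krt14 stood at 105 (81.5-133) and 932 (889.5-976). Tspan8, of the hormone-sensing list, was also lower in the 40 cells, at 108 CPM (84.2-136) against 211 (191-233). Ceacam1, Krt7 and Lif had overlapping intervals in both groups, at 468 and 477, 489 and 467, and 367 and 379 CPM. At P0, 52.9% of thinned cells had a UMI of both Wfdc18 and Csn3 and 70.5% of both Wfdc18 and Lcn2, and at E15.5 it was 0 of 445 cells for each pair.

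**Figure D5:**
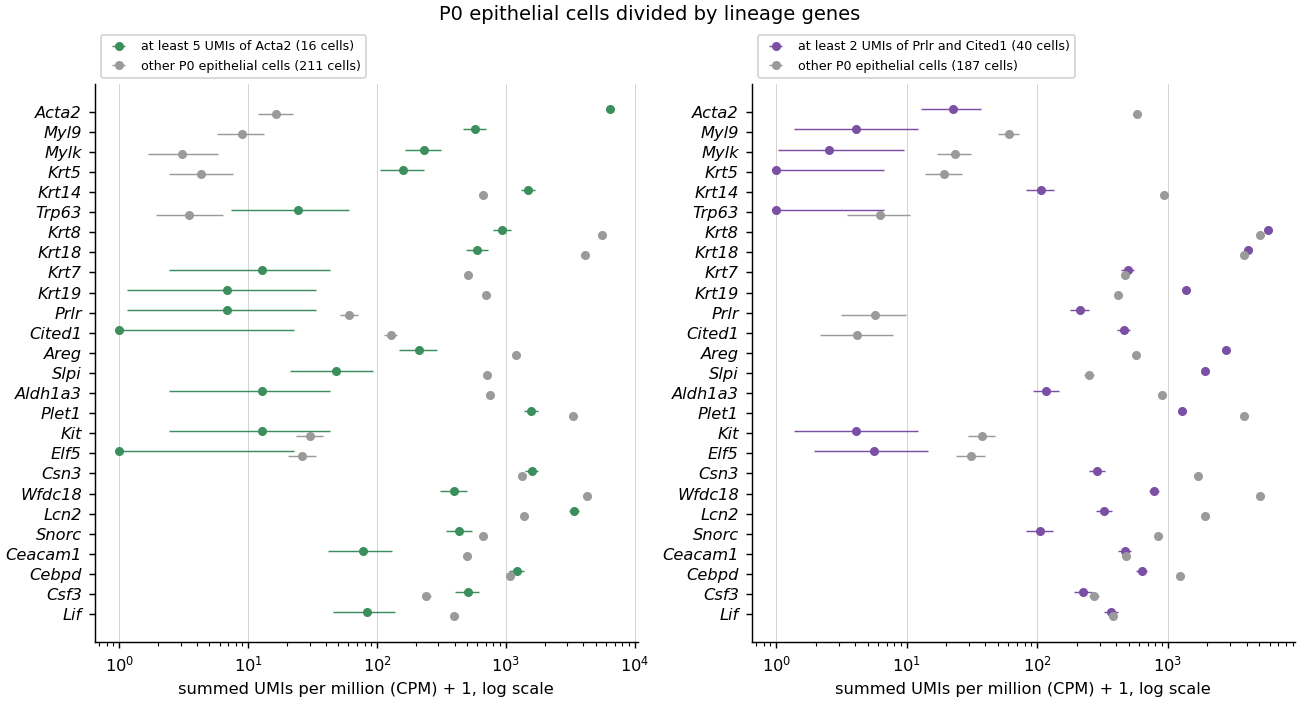
Level of 26 genes in P0 epithelial cells, in CPM plus 1 on a log axis, with the cells that pass the limit in colour, all other P0 cells in grey and lines for the 95% counting interval. On the left the 16 cells with Acta2 stand to the right for contractile genes, Krt5 and Lcn2 and to the left for Wfdc18 and luminal keratins, and on the right the 40 cells with Prlr and Cited1 stand out by Areg, Slpi and Krt19.

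At E15.5, 185 of the 445 cells had at least 5 UMIs of Krtdap, and their median depth was 28661 UMIs, that of the other 260 22561.5. They had more Krt17, at 899.7 CPM (876-924) against 482 (465-499), more Anxa1, a phospholipid-binding protein, at 472 (455-490.2) against 147 (138-157), and more Plet1, at 244 (232-257) against 103 (95.4-112). Wnt6 was lower in them, at 75.7 (68.8-83.0) against 158 (149-169), as were Wnt3, at 42.5 (37.4-48.0) against 74.6 (67.9-81.6), and Ntm, at 101 (92.9-109) against 204 (193-215). Other leaders at E15.5 differed less, with Tenm2 at 100.3 and 99.7, Ccnd2 at 1579 and 1748, and Grhl3 at 202 and 168 CPM. Krt14 stood at 2471 and 2625 CPM. A UMI of both Sox11 and Ccnd2 was found in 88.8% of thinned E15.5 cells and 3.52% of P0 cells.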

How the data were processed

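The authors deposited, for each stage, a table of raw UMI counts per gene and cell barcode made with 10x Cell Ranger on mm10. The labels name version 6.0.0, and the E15.5 header names 3.1.0. The study's filters were used, which keep cells from 5000 UMIs upwards whose mitochondrial share is 6% or less. The study reports fewer cells after them than the 816 at E15.5 and 503 at P0 found here. It also took out skin cells after clustering, which was not done here. Its mammary epithelial cells are fewer than the 445 and 227 taken here, so the 2 sets of cells are not the same. Genes were matched by Ensembl identifier (30406 in both tables, of which 597 had another symbol), and the 9 genes that chose the cells were left out of all counts of genes. Genes in only 1 of the tables, 647 at E15.5 and 1879 at P0, were left out. A count of 0 was replaced by 3 counts for a ratio. Levels have exact Poisson, ratios exact conditional binomial and shares exact binomial limits at 95%. With 1 library per stage no p-value was computed. Reads of 3′ tags do not compare levels between genes. The members and the gene lists were chosen with earlier results of these data known. Named genes are the 15 leaders and 8 genes set aside in each direction, up to 6 of highest level and 4 of largest ratio in each list, and the genes that chose the cells. Doublets were not removed. Scrublet (scanpy 1.11.5) marked 7 of 816 cells at E15.5 and 3 of 503 at P0. The intervals were tested on simulated Poisson counts. These lack the spread between cells and pools, so the test cannot show how the intervals cover in these data. A further marker list is not reported here. Gene positions are from GENCODE on GRCm38. Python 3.11.15, numpy 2.4.6 and scipy 1.17.1 were used.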

Additional observations from a re-analysis of the deposited data

Results flagged for a closer look

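The leading genes Krtdap, Uchl1 and Ccdc80 moved in opposite directions in the 2 tissues, each tissue as 1 sum of cells per stage, and the difference was not tested. The log2 ratio of P0 over E15.5 for Krtdap was -6.63 in epithelium and 2.74 in mesenchyme. For Uchl1 it was -6.29 and 1.4995, and for Ccdc80 it was -4.91 and 2.13. Uchl1 rests on 3 UMIs in P0 epithelium, and Ccdc80 and Krtdap on 7 and 17. No outlier among replicates could be sought, since each stage has 1 library.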

How the results depend on the processing

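The 784 genes kept at P0 became 518 with a minimum level of 20 CPM and 352 with a limit of 4-fold, and the 665 kept at E15.5 became 260 with a limit of 4-fold, settings that pass fewer genes by construction. Under the other planned settings, the kept genes ranged from 729 to 1069 at P0 and, with the minimum of 20 CPM included, from 486 to 876 at E15.5. Other limits for the choice of epithelial cells gave 317 to 561 at E15.5 and 220 to 249 at P0. Of genes at least 2-fold apart, 48.3% were higher at P0, and 54.8% when ratios were centred on their median. All 30 leaders were kept in every planned setting but 1. The limit of 4-fold and the minimum levels of 20 and 5 CPM could not drop them. The leaders had been chosen for large ratios and at least 50 CPM. Without a limit on the mesenchymal level, Wfdc18, Ceacam1, Csf3, Lif, Slpi, Krt7 and Mycl were set aside. An alternative chosen after seeing the data, which also set aside genes whose E13.5 and E14.5 levels both lay nearer to P0, left 674 and 594 genes and dropped Krtdap. Of 258 gene ratios under 11 alternatives, 2438 values moved within their counting interval, 395 by more and 4 turned their sign, as follows. The log2 ratio of Sbsn was -0.34 without a minimum on Krt8 and Krt18, against 1.52. Without cells with 2 or more UMIs of Top2a and Mki67, the log2 ratio of Bub1 was 0.94, the log2 ratio of Ccnb1 0.72 and the log2 ratio of Nusap1 1.43, against -2.22, -1.89 and -1.47. No list median turned its sign. No paired analysis was possible because each stage has 1 library, and no replicate could be left out. For a gene with 0 UMIs the floor of 3 counts is 0.246 CPM at E15.5 and 1.17 CPM at P0. The exact upper limit, as for Wfdc18 and Wnt3, is 0.303 and 1.43 CPM, so that a count of 0 does not exclude expression below these levels. A single UMI is 0.0822 CPM at E15.5 and 0.389 at P0.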
